A study of Mus musculus with 6 samples.

Results

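Mt1 and Mt2 encode metallothioneins, small cysteine-rich proteins that bind zinc and copper. The pair was chosen by gene symbol and makes up 2 of the 329 genes that targeted BD Rhapsody panels measured cell by cell in the mouse hypothalamus. No library measured both genes. Mt2 belonged to a larger set of 265 genes, read in 1124 cells of 4 libraries. Mt1 belonged to a smaller set of 75 genes, read in 129 cells of the other 2 libraries. Each gene had 1 amplicon, and a value is a count of UMIs, the distinct tagged molecules of that gene under 1 cell barcode.

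All cells came from C57/Bl6 mice of the genotype KLB-CRE; Ai14, in which Cre under control of Klb, the co-receptor gene of the hormone FGF21, switches on tdTomato for good in a cell and its descendants. The label calls the cells Klb-expressing, but a tdTomato-positive cell may have stopped expressing the gene. For each of 3 captures, 3 hypothalami were pooled, digested with pronase and sorted for tdTomato and a Hoechst viability stain. There was no second genotype or treatment, so the capture is the replicate and levels are described without a test. The age of the mice is not given in the sources used here.

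Metallothioneins buffer free zinc and copper and take up oxidants through their thiol groups. Their transcription is switched on by metals through the zinc-sensing factor MTF1, and also by glucocorticoids, oxidants and inflammatory cytokines. In the brain the Mt1 and Mt2 pair is best known from glia, mainly astrocytes, whereas Mt3 is the brain-enriched member of the family.

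The genes are neighbours. In the GRCm38 annotation (GENCODE M21), Mt2 lies at chr8:94172664-94173568 and Mt1 at chr8:94179082-94180327, both on the plus strand with 3 exons, and 5513 bases separate them. The submitters' build was mm9, so these positions are not those of their alignment. The amplicons name the RefSeq transcripts NM_013602.3 for Mt1 and NM_008630.2 for Mt2. The coding sequences of these transcripts are shown because they bear on whether the amplicons can be told apart, with the bases that differ between the genes in capitals, 5′ to 3′ from the start codon to the stop codon.

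Mt1: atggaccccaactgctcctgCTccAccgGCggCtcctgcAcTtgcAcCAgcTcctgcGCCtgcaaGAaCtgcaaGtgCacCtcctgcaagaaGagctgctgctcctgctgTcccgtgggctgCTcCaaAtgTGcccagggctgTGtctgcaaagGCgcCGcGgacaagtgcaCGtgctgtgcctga
Mt2: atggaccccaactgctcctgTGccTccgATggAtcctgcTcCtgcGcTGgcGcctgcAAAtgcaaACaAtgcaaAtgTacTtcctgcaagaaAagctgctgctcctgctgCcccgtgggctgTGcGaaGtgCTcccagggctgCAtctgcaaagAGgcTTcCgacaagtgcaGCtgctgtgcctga

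Both coding sequences have 186 bases and differ at 38 of them, an identity of 79.6%. Their longest shared run is 20 bases, and in the part after the stop codon (134 bases in Mt1, 141 in Mt2) it is 10 bases. The position of the amplicons within the transcripts is not given in the sources used here, so reads shared between the genes were not tested.

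Library quality varied widely and bears on every value here. Kept barcodes (at least 20 UMIs and 5 genes) numbered 950, 44, 43 and 87 in the Mt2 libraries (panel 1 of replicate 1, then panel 2 of replicates 1, 2 and 3), with 105772, 11423, 79560 and 109452 UMIs and median depths of 51, 115.5, 1352 and 1068 UMIs. The first of them is labelled panel 1 but was read with the larger set, so it is kept apart from panel 2. The Mt1 libraries (panel 1 of replicates 2 and 3, the second by gene set rather than by table) had 25 and 104 barcodes, 25964 and 76898 UMIs and median depths of 1044 and 705. Both tables of replicate 3 list its 104 barcodes with smaller-set counts and its 87 with larger-set counts. The 104 were read from the table labelled panel 2, which names the 80 amplicon columns they fill, whereas the table labelled panel 1 gives the same counts in its first 80 columns, under larger-set names. They are called panel 1 because the table of panel 1 of replicate 2 has that set, so this name is an assignment and not a label. In the Mt1 libraries a single gene, the microglial complement gene C1qa, took 85.0% and 92.7% of all UMIs. The mRNA of tdTomato was in 29.6%, 0%, 95.3% and 98.9% of barcodes of the 4 Mt2 libraries in the same order, where 0 of 44 allows a share of up to 6.82%. It was not measured beside Mt1. Libraries of the same capture shared 0, 0 and 2 cell indices, and those of different captures 0. A further 21 barcodes found in the tables of 2 replicates were left out before this count. The 0 between panel 2 of replicate 2 and the libraries of replicate 3 follows from that.

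Mt2 was nearly everywhere in 3 of its 4 libraries and scarce in the fourth. The panel 1 library of replicate 1 had 843 of 950 barcodes (88.7%, exact 95% interval 86.6 to 90.7) with a Mt2 UMI. In panel 2 it was found in 10 of 44 barcodes of replicate 1 (22.7%, 11.5 to 37.8), in 43 of 43 of replicate 2 (100%, 91.8 to 100) and in 74 of 87 of replicate 3 (85.1%, 75.8 to 91.8). The panel 2 mean was 69.3% ± 41.0 (SD, n = 3). These intervals, like all intervals given here, cover counting error only. No cell type known to lack Mt2 could be named, so a background share from free RNA was not measured in one.

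This share moves with depth. With every barcode thinned at random to 35 UMIs, Mt2 was in 73.4% of barcodes of the panel 1 library of replicate 1, and its share over the 3 panel 2 libraries was 11.6%, 44.2% and 5.75%. The thinned set left out 306 shallower barcodes of the first library and 1 of the second. Replicate 3, at 85.1% with full depth, then had the lowest share of the 4. There 27 of the 74 positive barcodes held a single Mt2 UMI, at a median depth of 1068 UMIs.

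The level, as Mt2 UMIs per 1000 UMIs of the library, shows the order without that effect. It was 44.5 (95% interval 43.2 to 45.8) from 4704 UMIs in panel 1 of replicate 1. In panel 2 it was 0.963 (0.481 to 1.72) from 11 UMIs in replicate 1, 17.9 (16.9 to 18.8) from 1421 UMIs in replicate 2 and 1.57 (1.35 to 1.82) from 172 UMIs in replicate 3, with a mean of 6.80 ± 9.59 (SD, n = 3), or 1.27 without replicate 2. Only the lowest pair could not be separated at this depth: replicate 3 was 1.63-fold above replicate 1, with an interval of the ratio from 0.890 to 3.33, where 59.6% of 114 genes were at least 4-fold apart.

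Gaps of this size between libraries were common among all genes. Mt2 was 46.2-fold (25.8 to 92.6) higher in panel 1 than in panel 2 of the same capture, replicate 1. Between these libraries 57.1% of the 147 genes compared were at least 4-fold apart, and 12 genes lay further apart than Mt2. Within panel 2, Mt2 in replicate 2 stood 18.5-fold above replicate 1 and 11.4-fold above replicate 3, where 68% and 48.4% of genes were at least 4-fold apart in either direction. Panel 1 of replicate 1 exceeded panel 2 of replicate 2 by 2.49-fold (2.35 to 2.64) and panel 2 of replicate 3 by 28.3-fold (24.3 to 33.1), where that background was 60.5% for each. Library, depth and the identity of the sorted cells differ together between these libraries and cannot be told apart.

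Mt1 was found in nearly every cell that measured it. It was in 25 of 25 barcodes of panel 1 of replicate 2 (100%, 86.3 to 100) and in 102 of 104 of replicate 3 (98.1%, 93.2 to 99.8), a mean of 99.0% ± 1.36 (SD, n = 2). Thinned to 35 UMIs the shares were 64.0% and 38.5%. Its level was 34.4 UMIs per 1000 (32.2 to 36.8) from 894 UMIs in replicate 2 and 12.4 (11.6 to 13.2) from 950 UMIs in replicate 3, with a mean of 23.4 ± 15.6 (SD, n = 2).

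In both Mt1 libraries only C1qa and 1 other gene had more UMIs than Mt1, so that Mt1 ranked 3 of 14 and 3 of 27 detected genes. Replicate 2 was 2.79-fold (2.54 to 3.06) above replicate 3, against 58.3% of 24 genes at least 4-fold apart. Since C1qa fills most of the total, the mean level becomes 199 per 1000 when C1qa is left out of it. The levels of Mt1 and Mt2 come from different primer sets and, apart from 2 shared cell indices in replicate 3, from different cells. They were not compared.

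**Figure D1:**
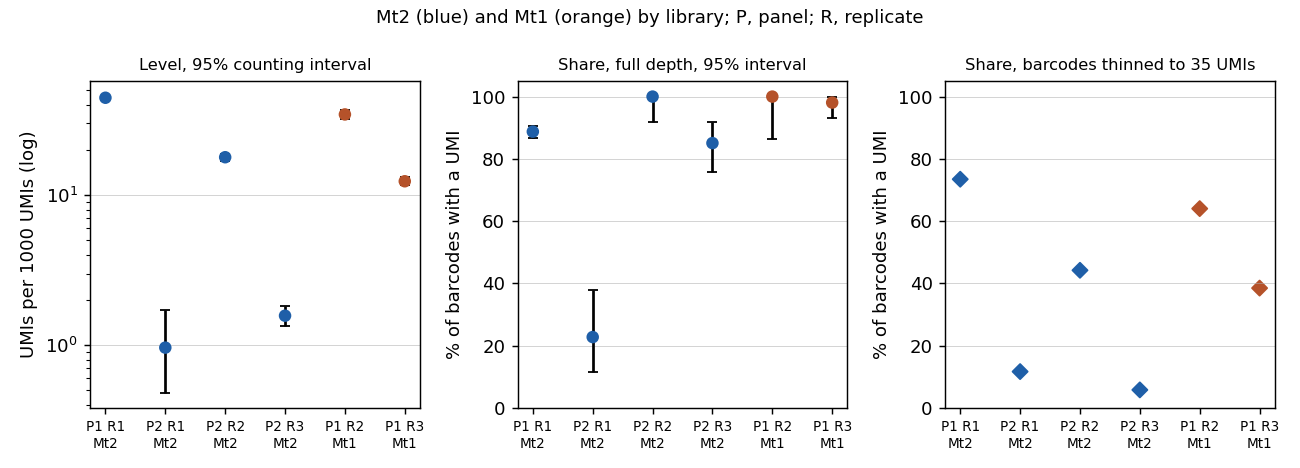
Level (UMIs per 1000 UMIs, log axis), share of barcodes with a UMI and share after thinning to 35 UMIs for Mt2 (blue, 4 libraries) and Mt1 (orange, 2 libraries). Bars are exact 95% counting intervals; the Mt2 level runs from 0.963 to 44.5 per 1000, and panel 2 of replicate 3 drops from 85.1% to 5.75% on thinning.

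Within a library, most barcodes carried Mt2 in proportion to their depth. Barcodes of panel 1 of replicate 1, split by depth into 4 groups of like size with medians of 24, 39, 71 and 203 UMIs, held 39.3, 40.0, 38.0 and 47.1 Mt2 UMIs per 1000, while the share with a UMI climbed from 70.2% to 99.2%. The 4 depth groups of panel 2 of replicate 2 held 16.0, 15.2, 14.6 and 20.9 per 1000. The level of Mt2 thus moved little with depth in either, apart from the deepest group, which was highest in both. Mt1 differed: in panel 1 of replicate 2 it fell from 51.6 (46.2 to 57.5) to 35.6, 29.5 and 22.5 per 1000 (19.2 to 26.3). These 4 depth groups held 6 or 7 barcodes each. The 2 barcodes with the most Mt1 for their depth had 939 and 945 UMIs, under the library median of 1044. They held 106 and 103 of its 894 Mt1 UMIs, which raises the shallow side. The fall without them was not tested. In replicate 3 Mt1 was at 11.2, 11.5, 11.3 and 14.1 per 1000. The 605 barcodes of panel 1 of replicate 1 that fell under the minimum of 20 UMIs or 5 genes held 44.2 per 1000 (39.3 to 49.5), beside 44.5 in the kept ones. What part of the Mt2 UMIs is free RNA was not tested.

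A few barcodes lay above this line. They were called Mt-rich when they held at least 3 times the median level of their library and at least 5 UMIs of the gene, a rule chosen after the values were seen, so no test is attached to it. In panel 1 of replicate 1, 16 of 950 barcodes (1.68%) were Mt2-rich and carried 26.3% of all Mt2 UMIs. The lowest of them had 115 Mt2 UMIs per 1000 and the highest barcode outside, among those with enough UMIs, 98.0, around a threshold of 103. Without them the library level was 34.97 per 1000.

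In 3 other libraries 1 to 3 barcodes stood apart, in 1 those taken by the rule did not, and 1 had none. Among 43 barcodes of panel 2 of replicate 2, 1 had 298 Mt2 UMIs among 2041 (146 per 1000, next highest 26.7), which is 20.97% of the Mt2 UMIs there. The rule took 4 of 87 barcodes of panel 2 of replicate 3, which held 21.5% with 5 to 18 Mt2 UMIs each. They lay at 4.01 to 6.78 per 1000, close to the highest outside at 3.50, and 7 of 102 genes (6.86%) were at least 3-fold higher in them. Panel 2 of replicate 1 had too few Mt2 UMIs for any. For Mt1, 2 of 25 barcodes of replicate 2 had 113 and 109 UMIs per 1000 against a next highest of 51.7, and 3 of 104 of replicate 3 had 62.3, 51.8 and 51.8 against 29.9. These 2 and 3 barcodes held 23.4% and 13.4% of the Mt1 UMIs.

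**Figure D2:**
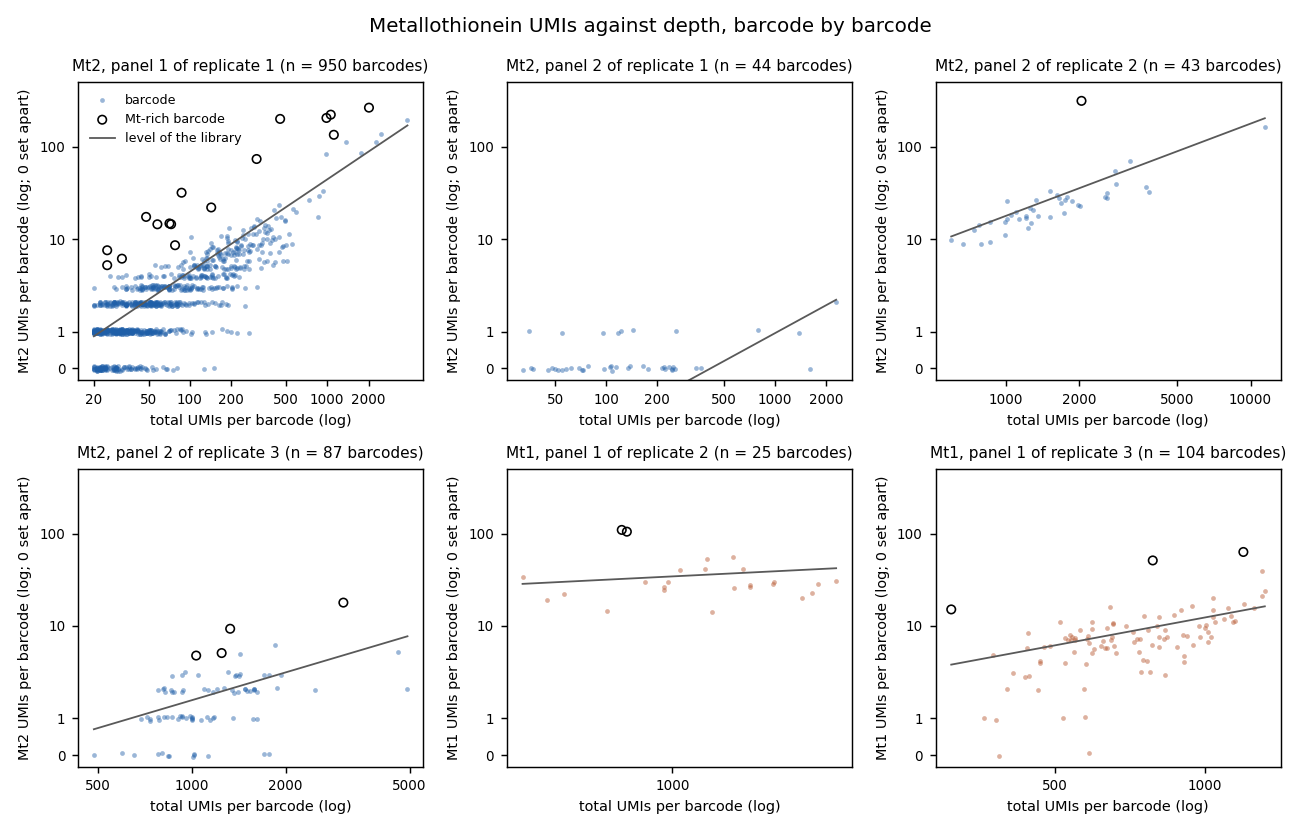
Mt2 or Mt1 UMIs against total UMIs for each kept barcode (points, log axes, 0 drawn apart, small vertical jitter), with the library's level as a line and Mt-rich barcodes as open circles. Most Mt2 points follow the line, whereas the Mt1 level of panel 1 of replicate 2 falls with depth. That fall counts its 2 Mt1-rich barcodes, both under the median depth. The Mt-rich barcodes, 16 of panel 1 of replicate 1 and 1 to 4 of 4 other libraries, lie above the line.

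The spread over barcodes gives the same picture in 1 number per gene: chi-square per degree of freedom around the mean profile of the library, which is about 1 when a gene varies by counting error alone. Mt2 had 5.42 in panel 1 of replicate 1 (rank 13 of 135 genes, median 1.91) and 47.2 in panel 2 of replicate 2 (rank 6 of 81, median 14.5). Without the Mt2-rich barcodes these values were 1.02 (rank 125 of 130) and 1.68 (rank 69 of 81). Removing barcodes by their own Mt2 lowers its spread by construction, so these values describe how few barcodes carry it.

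Mt1 was the most uneven gene of both its libraries, with 17.3 in replicate 2 (10 genes, median 5.07) and 4.99 in replicate 3 (17 genes, median 1.11). The values without the Mt1-rich barcodes were 3.79 and 1.73. Mt2 in panel 2 of replicate 3 had only 1.41 (rank 80 of 103).

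What else the Mt2-rich barcodes held was read from panel 1 of replicate 1, the only library with more than 4. Levels of other genes are per 1000 UMIs other than Mt2, so that Mt2 itself does not lower them. Of 134 genes with at least 20 UMIs, 15 (11.2%) were at least 3-fold higher in the 16 Mt2-rich barcodes than in the other 934. Most of these rest on 1 barcode: with any 1 of the 16 left out, an alternative added after the data were seen, 2 of the 15 stayed at 3-fold or more, Crym and Sox2. Tanycytes are the glia that line the floor of the third ventricle, and 3 of the 5 members of their list with enough UMIs passed 3-fold, or 1 of 5 with any 1 barcode left out.

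Gpr50, an orphan receptor gene of tanycytes, had 61.0 per 1000 in the Mt2-rich barcodes and 11.8 in the rest, but 1 barcode held 216 of its 326 UMIs, and without it the level was 30.7 (2.59-fold). Crym, which encodes a thyroid hormone-binding protein, had 37.4 and 6.72, and 25.3 (3.77-fold) without its leading barcode. Frzb, a secreted Wnt antagonist gene, had 13.3 and 2.04, with 49 of its 71 UMIs in 1 barcode and 4.82 (2.37-fold) without it. The intermediate filament genes Vim (22.5 and 11.8) and Nes (4.68 and 4.29) did not reach 3-fold. Summed, the tanycyte list stood at 139 per 1000 (129 to 149) against 36.6 (35.4 to 37.9), and at 123 at the lowest with 1 barcode left out.

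Of the astrocyte list, 1 of 2 members passed 3-fold, and 0 with any 1 barcode left out. Gja1, the gap junction gene connexin 43, had 47.4 per 1000 in the Mt2-rich barcodes and 15.2 in the rest, and 36.5 (2.40-fold) without its leading barcode. Gfap, the astrocyte filament gene, was at 6.36 and 4.52. The other genes of this paragraph were chosen after their values were seen. The progenitor factor gene Sox2 had 32.9 and 7.16, and 24.8 (3.46-fold) without its leading barcode. The GABA transporter gene Slc6a11 had 21.5 and 3.41, but 85 of its 115 UMIs were in 1 barcode, and without it the level was 8.38 (2.46-fold). Slc7a11, the cystine transporter gene of the oxidative stress list, had 17.2 and 3.92, and 11.2 (2.87-fold) at the lowest with 1 barcode left out.

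Pooled over depth, most other cell type lists were lower in the Mt2-rich barcodes, and for the endothelial and fibroblast lists this turned on depth. The mural list summed to 8.42 per 1000 (6.14 to 11.3) against 13.5 (12.7 to 14.2). It was lower in each depth group too, with overlapping intervals. The neuron list summed to 2.81 (1.57 to 4.63) against 4.32 (3.92 to 4.76). The endothelial list summed to 57.5 per 1000 (51.2 to 64.3) against 90.9 (89.0 to 92.9), but under 200 UMIs it was 88.7 (64.5 to 119) against 74.7 (72.3 to 77.2). The fibroblast list summed to 29.8 against 61.1, but under 200 UMIs to 66.5 (45.8 to 93.4) against 48.2 (46.2 to 50.2). The pooled gap of both lies mainly in barcodes of 500 UMIs or more, where 4 Mt2-rich and 16 other barcodes had endothelial levels of 54.5 and 161 and fibroblast levels of 23.8 and 123.

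The microglial list, of 1 gene here, summed to 15.0 against 28.9 and the precursor list to 24.3 against 47.6, and both were lower in each of 3 depth groups. Counting intervals overlapped in the middle group for the microglial list, and for the precursor list both under 200 UMIs, at 40.3 (24.6 to 62.3) against 51.1 (49.1 to 53.2), and at 500 UMIs or more, at 22.5 (18.2 to 27.4) against 27.3 (24.99 to 29.8). The ependymal list, for the ciliated cells that line the ventricle, was 44.9 (39.4 to 51.0) against 48.1 (46.7 to 49.5) when pooled, yet higher in the Mt2-rich barcodes of each depth group. It was 68.5 (47.5 to 95.8) against 49.7 (47.8 to 51.8) under 200 UMIs, 84.9 (60.9 to 115) against 56.8 (54.1 to 59.6) from 200 to under 500, and 37.8 (32.3 to 44.0) against 30.0 (27.6 to 32.7) at 500 or more, with intervals apart only in the middle group. The median over all 134 genes was a ratio of 0.87.

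Not every Mt2-rich barcode had the tanycyte pattern. The tanycyte list ran from 11.9 to 288 per 1000 over the 16, with a median of 57.3 against 34.6 in the rest, and 12 of 16 lay above the median and 7 above the 90th percentile of the rest. Of the 742 tanycyte UMIs, 675 came from the 4 barcodes with 500 UMIs or more. In these the list stood at 155 per 1000 (143 to 167), against 38.4 (35.6 to 41.4) in the 16 other barcodes of that depth. In barcodes under 200 UMIs it stood at 74.6 (52.5 to 103) in 10 Mt2-rich ones against 37.9 in 815 others.

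Pooled within depth, the list was thus higher at low and high depth alike, and by less in the shallow barcodes. The shallow value leans on 1 barcode of 73 UMIs, at 288 per 1000. Its 6 Crym, 5 Frzb and 5 Gpr50 UMIs are among the 37 tanycyte UMIs of the 10 shallow Mt2-rich barcodes. An excess without this barcode was not tested. Of the 4 deep ones, 3 had 161, 225 and 211 tanycyte UMIs per 1000 and the fourth 39.5. Depth itself differed between the groups, with a median of 82.5 UMIs in the Mt2-rich and 50.5 in the other barcodes, and doublets were not called. The mRNA of tdTomato was in 5 of 16 (31.3%) and in 29.6% of the rest, but this depended on the cut. At 2 times the median it was in 41.7% of 24 barcodes against 29.3% of the rest. At 5 times it was in 25% of 12 against 29.6%.

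**Figure D3:**
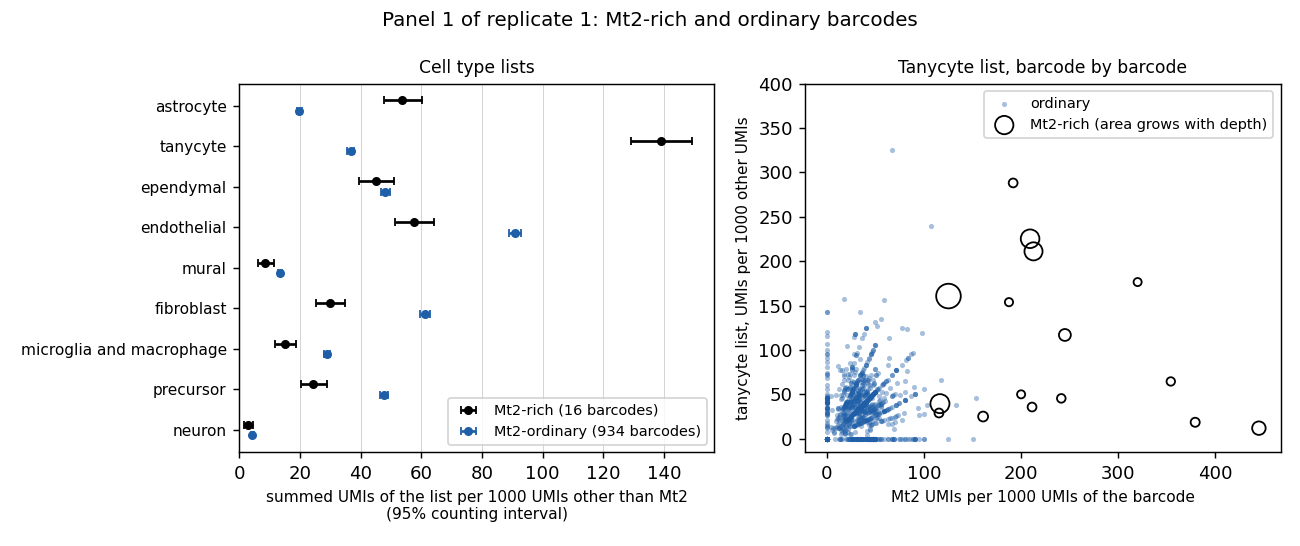
Panel 1 of replicate 1. Left, summed UMIs of cell type lists per 1000 UMIs other than Mt2 in the 16 Mt2-rich and 934 other barcodes, with 95% counting intervals; right, the tanycyte list of each barcode against its Mt2 level. The tanycyte list stands at 139 against 36.6, and the circles for deep Mt2-rich barcodes lie above 150 except for 1 at 39.5.

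The single barcode with the most Mt2 for its depth had high Tshb in 2 captures. Tshb encodes the beta subunit of thyrotropin, a hormone of the pituitary and its pars tuberalis. From here on, gene levels of single barcodes and of the others beside them are per 1000 of all UMIs. Mt2 or Mt1 is part of that total, which lowers the values of rich barcodes. In panel 1 of replicate 1 the top barcode had 202 Mt2 UMIs among 454 (445 per 1000), with Tshb at 121 per 1000 against 1.44 in the other barcodes, the histamine-synthesis gene Hdc at 44.1 against 1.24, and 16 tdTomato UMIs. In panel 2 of replicate 2 the Mt2-rich barcode had Tshb at 45.1 per 1000 against 3.57, the clock-associated gene Timeless at 118 against 6.48 and the retinoid receptor gene Rxrg at 41.2 against 1.496.

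These are 2 barcodes, picked out after their values were seen. Of the 60 Tshb UMIs in Mt2-rich barcodes of panel 1 of replicate 1, 55 came from the top one, and without it Tshb was lower in them than in the rest (ratio 0.64). More widely, the 115 barcodes with a Tshb UMI and the 835 without had median Mt2 levels of 36.0 and 33.9 per 1000. Their pooled levels, which the top barcode enters, were 60.8 and 37.1 per 1000 other UMIs, at median depths of 140 and 46 UMIs.

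The second-highest barcode of panel 1 of replicate 1 was of another kind. It had 33 Mt2 UMIs among 87, with the endothelial glucose transporter gene Slc2a1 at 184 per 1000 against 27.3 in the others. The highest of panel 2 of replicate 3 had 9 Mt2 UMIs among 1328 and led with Rarres2, the chemerin gene, at 111 against 8.06. The next there had 18 Mt2 UMIs among 3066 and led with the myelin gene Mbp, at 276 against 66.1. At 6.78 and 5.87 Mt2 UMIs per 1000, these barcodes of replicate 3 were high only for their library, where the median was 1.29. Mt2 that was high for the library therefore came with different leading genes from barcode to barcode.

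The Mt1-rich barcodes had few genes beside C1qa to describe them. In replicate 2 the 2 barcodes had C1qa at 803 and 802 per 1000 against 852 in the others, and Cx3cr1, the microglial fractalkine receptor gene, at 17.0 and 55.0 against 28.5 and 27.1. Mt1 took 113 and 109 per 1000 of the UMIs of these barcodes, which lowers their other values. The gap in C1qa is therefore not read as a difference. In replicate 3 the highest had the macrophage receptor gene Mrc1 at 17.8 per 1000 against 3.51. Of 16 genes there, 0 (0%) were at least 3-fold higher in the 3 Mt1-rich barcodes than in the rest.

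Genes that varied with Mt2 across all barcodes were sought by a partial Spearman correlation of UMIs given the total UMIs of the barcode, among genes in at least 10% of barcodes. A gene was called at a rho of at least 0.3. Barcodes of a library share its depth and composition and are not replicates, so the values are descriptions. The cut is the same in libraries of 25 to 950 barcodes of unlike depth, and rho scatters more where barcodes are few. Counts of called genes are therefore not ranked between libraries. Over the 950 barcodes of panel 1 of replicate 1, 0 of 90 genes (0%) were called. The highest were the smooth muscle actin gene Acta2 (0.20), the fibronectin gene Fn1 (0.20), Gpr50 (0.19), the vesicle gene Vamp2 (0.18) and Slc2a1 (0.18). The lowest were Bbs9 (0.022), Unc13c (0.017) and Cxcl12 (0.0034). All 90 were positive, with a median of 0.10, but the median was 0.0072 when UMIs per 1000 were correlated instead.

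In panel 2 of replicate 2, with 43 barcodes, 17 of 85 genes (20%) reached 0.3. They were led by the cold-inducible RNA-binding gene Cirbp (0.47), the cytochrome oxidase gene Cox6a2 (0.46), Nenf (0.42), Cspg4 (0.39) and Ugdh (0.37). The immune receptor subunit gene Fcer1g, the most abundant gene there, was lowest (-0.38), with Rin2 (-0.20) and Trim28 (-0.16) next.

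Over the 87 barcodes of panel 2 of replicate 3, 0 of 110 genes (0%) were called. Cables1 (0.29), the transcription factor gene Bhlhe40 (0.27), Slc7a11 (0.26), Slc2a1 (0.25) and Vipr1 (0.25) were highest, and Fcer1g (-0.23), Slco1a4 (-0.17) and Col3a1 (-0.16) lowest. Panel 2 of replicate 1, with 11 Mt2 UMIs, gave 1 of 40 (2.5%), the obesity-locus gene Tmem18 (0.33). Fcer1g, the leading gene of all 3 panel 2 libraries, thus had the lowest value in 2 of them.

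Signs say little about recurrence between libraries, since most values were positive in each: 90 of 90 in panel 1 of replicate 1, then 28 of 40, 60 of 85 and 72 of 110 over the panel 2 libraries. Beside this, 29 of the 63 genes read in at least 3 of the 4 Mt2 libraries were positive throughout, a count that is not read as agreement. The 10 with the highest mean were Cirbp (0.23), Cox6a2 (0.21), Tmem18 (0.21), Slc7a11 (0.20), Plekhg5 (0.20), the oligodendrocyte gene Bcas1 (0.18), the insulin receptor gene Insr (0.18), tdTomato (0.17), Rarres2 (0.17) and Bhlhe40 (0.16). With UMIs per 1000 only 8 of the 29 kept 1 sign, and of the 10 named only Cox6a2, Slc7a11 and Bcas1. The signs of the other 7 depended on how depth was taken out.

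Of these 10, Slc7a11 belongs to the oxidative stress list. It imports the cystine from which glutathione is made, and its partial rho with Mt2 was 0.12 in the panel 1 library of replicate 1, then 0.22 and 0.26 for replicates 2 and 3 of panel 2. With UMIs per 1000 the values were 0.0037, 0.33 and 0.25. It was in 26.4%, 32.6% and 47.1% of barcodes of these libraries, and was not detected in the 44 of panel 2 of replicate 1.

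**Figure D4:**
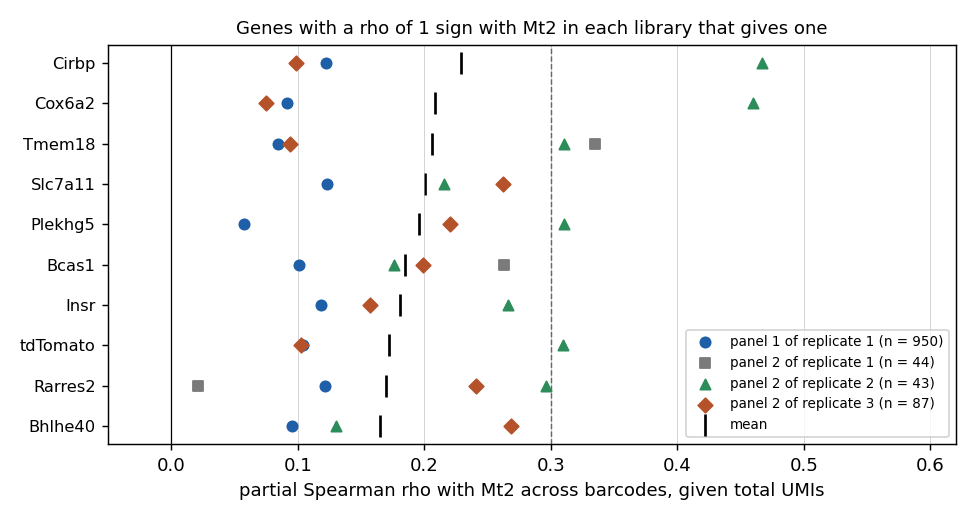
Partial Spearman rho with Mt2 across barcodes, given total UMIs, for the 10 genes of 1 sign with the highest mean (tick), 1 symbol per library; the dashed line is the call at 0.3. The largest values come from panel 2 of replicate 2 (0.47 for Cirbp), and panel 1 of replicate 1, with 950 barcodes, stays between 0.057 and 0.12.

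With Mt1, C1qa was lowest in both libraries, and no positive partner was plain. C1qa had a partial rho of -0.82 with Mt1 over 25 barcodes of replicate 2 and -0.51 over 104 of replicate 3. The rho is given total UMIs, of which C1qa filled 85.0% and 92.7%. A negative value for it was thus largely set in advance and is not read as a result. In replicate 2, 5 of 11 genes (45.5%) reached 0.3: the precursor gene Pdgfra (0.56), the myelin gene Mag (0.55), Cx3cr1 (0.45), Rarres2 (0.41) and the interneuron gene Pvalb (0.40). Hcrt (-0.29) and Snap25 (-0.16) were lowest after C1qa. In replicate 3, 2 of 19 (10.5%) did, the neuropeptide gene Nts (0.33) and Cx3cr1 (0.31), followed by Mag (0.28), the tanycyte gene Rax (0.18) and Rarres2 (0.15), and Sst (0.034) and Foxj1 (-0.073) were low.

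C1qa makes up most of every total, so the correlations were repeated without it. With C1qa taken out of the table, 0 genes reached 0.3 with Mt1 in either library, and the median rho went from 0.26 to -0.15 in replicate 2 and from 0.12 to -0.019 in replicate 3. Cx3cr1, positive in both, then had -0.23 and -0.079, and Mag -0.13 and -0.19. No gene held a positive call with Mt1 in both forms.

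The other genes of metallothionein biology were barely on the panels. No member of the lists for metal and zinc handling (among them Mt3, Mtf1 and the zinc transporters) and for the glucocorticoid response was measured. Of the oxidative stress list 2 of 19 were: Slc7a11, given above, and Ucp2, an inner mitochondrial membrane carrier gene, with a partial rho with Mt2 of 0.18 in panel 1 of replicate 1 and of -0.17, -0.046 and -0.12 over the 3 panel 2 libraries. Of the cytokine and acute phase list only Serpina3n was, in 2.33% of barcodes at most.

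The early response list, which tissue dissociation is known to induce, had 4 of 17 members, and 0 were called with Mt2 in any of the 4 libraries, where 0%, 2.5%, 20% and 0% of all genes were called. With Mt2 in panel 1 of replicate 1, Fos (0.15), Btg2 (0.14) and Nr4a1 (0.16) lay a little over the median of all genes, 0.10, and Fosb (0.068) under it. Nr4a1 in panel 2 of replicate 2 had 0.24, Fos 0.040 and Btg2 0.0086, where the median was 0.12. In panel 2 of replicate 1 only Btg2 was detected (0.19, median 0.067). In panel 2 of replicate 3 Fos had 0.14, Nr4a1 0.0054, Fosb -0.025 and Btg2 -0.11, where the median was 0.040. The part of digestion and sorting in the levels of Mt1 and Mt2 was not tested.

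The reporter showed no steady relation to Mt2. In panel 1 of replicate 1, 281 barcodes with a tdTomato UMI and 669 without had median Mt2 levels of 33.9 and 34.5 per 1000, at median depths of 131 and 41 UMIs, and pooled levels of 48.6 and 39.0 per 1000 other UMIs. The partial rho of tdTomato with Mt2 was 0.10 there, then 0.31 and 0.10 for replicates 2 and 3 of panel 2, and -0.024, 0.31 and 0.027 with UMIs per 1000. Only 2 barcodes and 1 barcode of panel 2 of replicates 2 and 3 lacked tdTomato, too few to compare.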

How the data were processed

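UMI counts per barcode and amplicon were used as deposited, without normalization. Per the file headers, BD's targeted Rhapsody pipeline made the counts, in its version 1.3 (panel 1 of replicate 1) or 1.5 (all others). The genome build was mm9 per the notes of the submitters on processing, and how reads were aligned and cells called is not given in the sources used here. Amplicons were summed by symbol. Barcodes with at least 20 UMIs and 5 genes were kept, which left out 605 of 1555 in panel 1 of replicate 1. The table of panel 1 of replicate 3 was not read for levels, because its 104 barcodes of the smaller set stand under larger-set names. They were read from the other table of that capture, in its last 80 columns. The table of panel 2 of replicate 3 has Mbp as an additional column, and the values of the 21 barcodes found in the tables of 2 replicates follow that header. No doublets were called. Shares have exact Clopper-Pearson 95% intervals and levels exact Poisson ones, a count of 0 has a limit of 3 counts. These cover counting error only. Captures are the replicates, and spreads are SD over captures.

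Named genes were Mt1, Mt2 and tdTomato, per library the 5 highest and 3 lowest partial rho, up to 10 genes of 1 sign across libraries, and up to 4 members of each of 15 lists. Other genes named were chosen after their values were seen. The members and lists were chosen with earlier results of these data known. Coding sequences are GENCODE M21 (GRCm38). The correlation was tested on counts simulated from panel 2 of replicates 2 and 3, with Mt2 set above its measured level where genes were made to follow it. This does not show what the correlation can find at the measured level of replicate 3 or in the other libraries. Python 3.11.15, numpy 2.4.6, pandas 2.3.3, scipy 1.17.1 and matplotlib 3.10.9 were used. Some results on certain genes are not reported here.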

Additional observations from a re-analysis of the deposited data

Results flagged for a closer look

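Mt2 UMIs appeared in barcodes outside the comparisons, above the limit that a count of 0 allows. Of the 605 barcodes of panel 1 of replicate 1 under the minimum of 20 UMIs or 5 genes, with a median depth of 11 UMIs, 265 (43.8%) had a Mt2 UMI, where 0 would allow up to 0.496%. Their 299 Mt2 UMIs made 44.2 per 1000.

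Of the 21 barcodes found in the tables of 2 replicates, 20 (95.2%) had Mt2, where 0 would allow up to 14.3%. They held 1277 Mt2 UMIs, or 53.3 per 1000 (50.4 to 56.3), of which 1162 came from 1 barcode with 16922 UMIs, and without it 16.3 per 1000 (13.5 to 19.6). This rests on reading them under the column names that include Mbp. Under the names without Mbp they had 0 Mt2 UMIs. For the 142 amplicons after that column, their profile correlated with that of panel 1 of replicate 1 at r = 0.062 without Mbp and 0.51 with it, and with panel 2 of replicate 1 at 0.060 and 0.41 (across amplicons, which are not independent).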

How the results depend on the processing

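Thinning to 35 UMIs moved the Mt2 share from 69.3% to 20.5% (panel 2 mean) and from 88.7% to 73.4% (panel 1 of replicate 1), and the Mt1 share from 99.0% to 51.2%. For panel 1 of replicate 1, keeping every barcode gave a Mt2 share of 71.3% and a minimum of 50 UMIs gave 98.0%. Its level of 44.5 per 1000 became 35.3 without the 5% of cells with the most UMIs, 47.3 with the leading gene out of the total and 34.97 without Mt2-rich barcodes. The Mt1 mean of 23.4 per 1000 became 199 with the leading gene out of the total.

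Leaving out a replicate gave panel 2 means of 53.9% to 92.5% and 1.27 to 9.72 per 1000 for Mt2, so without replicate 2 the level falls to 1.27, and 98.1% to 100% and 12.4 to 34.4 per 1000 for Mt1. Keeping the 21 barcodes gave a Mt2 panel 2 mean of 9.53 per 1000. No paired analysis was possible because Mt1 and Mt2 were measured in different cells and no result comes from a test.

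With Mt2 in panel 1 of replicate 1, 2 genes instead of 0 reached a rho of 0.3 at a minimum of 50 UMIs. With Mt1 in panel 1 of replicate 3, the 2 genes became 0 after thinning, 1 without the 5% deepest cells and 0 without the leading gene, C1qa. That last setting reversed 6 called values: Pdgfra (-0.11), Mag (-0.13), Cx3cr1 (-0.23), Rarres2 (-0.34) and Pvalb (-0.29) in replicate 2 and Cx3cr1 (-0.079) in replicate 3. Mt2-rich barcodes of panel 1 of replicate 1 numbered 24 at 2 times and 12 at 5 times the median, with the tanycyte list at 123 and 172 per 1000. With any 1 Mt2-rich barcode left out, 2 instead of 15 genes were at least 3-fold higher in them. Settings without the leading gene, the Mt-rich barcodes or 1 of them, and these multiples, were added after the data were seen.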
